A study of Mus musculus with 42 samples.

Results

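Smyd1, Ttn and Lrrn2 are 3 mouse genes that stood out among the largest differences between a DGCR8 knockout line and the KH2-ISY1 embryonic stem cell line, and they were selected on that difference. All 3 were found by name, as 1 row each, among the 16345 named genes of the table on epiblast-like cells (EpiLCs) and among the 16753 genes of the table on embryoid bodies (EBs). Levels were measured by sequencing polyA RNA, with 1 library per condition and time. KH2-ISY1 cells carry a Flag-tagged copy of the splicing factor ISY1 that doxycycline (Dox) switches on. The EpiLC table holds 10 KH2-ISY1 libraries without Dox, from the start of EpiLC culture (0 h) and at 6, 12, 18, 24, 30, 36, 48, 72 and 96 h. It also holds 4 libraries of the same line with Dox (24, 48, 72 and 96 h) and 6 of the DGCR8 knockout line (0, 6, 24, 48, 72 and 96 h). The 0 h cells of both lines grew in 2i/LIF, and the labels give no Dox treatment for the knockout. Another 4 libraries are of cESCs, made by putting 24 h or 48 h EpiLCs back into 2i/LIF without Dox, the EpiLCs having had no Dox or Dox. The EB table holds 7 KH2-ISY1 libraries without Dox, from serum/LIF cells (day 0) to days 1, 2, 4, 8, 10 and 13 of differentiation medium, and 1 of serum/LIF cells with Dox. The knockout is a separate line, so effects of its background and of DGCR8 loss cannot be told apart. No Dox-treated line without the ISY1 transgene was analysed here.

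DGCR8 binds primary microRNA transcripts and holds them for the nuclease DROSHA, so cells without it lack most mature microRNAs. Smyd1 encodes a histone methyltransferase with SET and MYND domains that is normally found in heart and skeletal muscle, where it is needed for cardiac growth and for building sarcomeres. Ttn encodes titin, the giant elastic protein that runs from the Z-disc to the M-line of the sarcomere. Lrrn2 encodes a membrane protein with leucine-rich repeats of a small family first described in the nervous system.

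The 3 genes lie on different chromosomes, and their promoters are shown because the genes were high together in the knockout. In GRCm38.p6, Smyd1 lies on the minus strand at chr6:71213940-71262281, Ttn on the minus strand at chr2:76703980-76982557, and Lrrn2 on the plus strand at chr1:132880355-132940005. The RefSeq promoter windows, from 250 bases before the annotated start to 50 after it, are chr6:71262232-71262531 for Smyd1, chr2:76982498-76982797 for Ttn and chr1:132880105-132880404 for Lrrn2. All 3 genes matched an entry. Each is written 5′ to 3′ on the gene's own strand, and capitals mark matches on either strand to an E-box (CANNTG, bound by MyoD-type and neural helix-loop-helix factors), an MCAT element (CATTCC, bound by TEAD factors), a TATA box (TATAAA), the MEF2 motif or the CArG box of SRF.
Smyd1: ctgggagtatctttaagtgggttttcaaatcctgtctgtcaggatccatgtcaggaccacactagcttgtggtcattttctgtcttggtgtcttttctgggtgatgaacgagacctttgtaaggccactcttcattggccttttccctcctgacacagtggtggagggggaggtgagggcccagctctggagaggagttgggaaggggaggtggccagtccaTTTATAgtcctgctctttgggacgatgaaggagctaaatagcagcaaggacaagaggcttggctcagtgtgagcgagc
Ttn: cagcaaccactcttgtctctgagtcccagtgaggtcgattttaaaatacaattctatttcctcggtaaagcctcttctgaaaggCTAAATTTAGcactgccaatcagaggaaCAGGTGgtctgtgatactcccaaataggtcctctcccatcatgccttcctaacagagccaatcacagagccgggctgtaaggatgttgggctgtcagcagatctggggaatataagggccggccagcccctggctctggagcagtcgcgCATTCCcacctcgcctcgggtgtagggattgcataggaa
Lrrn2: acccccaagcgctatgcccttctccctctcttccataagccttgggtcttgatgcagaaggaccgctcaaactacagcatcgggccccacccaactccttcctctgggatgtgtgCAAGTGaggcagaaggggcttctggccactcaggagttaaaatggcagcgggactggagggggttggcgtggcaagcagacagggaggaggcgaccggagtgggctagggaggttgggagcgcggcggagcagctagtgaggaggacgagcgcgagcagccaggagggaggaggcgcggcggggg

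The windows had little sequence in common by these measures. The Smyd1 window held only a TATA match, on the opposite strand, which 13.6% of 32851 mouse promoter windows of the same length also held. The Ttn window held an E-box, an MCAT element just after the start and a MEF2 match, found in 72.3%, 14.7% and 3.19% of windows. The Lrrn2 window held 1 E-box. No CArG box, present in 1.63% of windows, was found in these letters of any of the 3 genes. GC content was 52.0% for Smyd1, 51.7% for Ttn and 64.0% for Lrrn2, against a median of 52.7% over all windows. The ratio of observed to expected CpG was 0.156 for Smyd1, 0.400 for Ttn and 0.544 for Lrrn2, against a median of 0.384. A match is a description of the letters and not evidence of binding.

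Dgcr8, the gene targeted in the knockout, was checked first. Its normalised read count was 36.8 to 44.5 in the 6 knockout libraries and 75.2 to 231 in the 10 libraries without Dox, so the groups did not overlap. Its log2 difference was −1.48 ± 0.20 (SE, 6 pairs, limma adjusted p = 0.000703). Isy1, the gene induced by Dox, read 267 to 557.5 without Dox, 708 to 3038 with Dox and 312 to 513 in the knockout. Libraries held 5.8 to 56.0 M reads, and 1 read was worth 0.0952 to 0.935 units. Knockout libraries were deeper (11.7 to 38.8 M reads) than those without Dox (6.17 to 13.2 M). These depths are library totals divided by the estimated value of 1 read. In the knockout, whole reads were recovered only for the 48 h library. The 6 pluripotent stem cell genes checked summed to 7326 to 27213 units without Dox and to 11449 to 24535 in the knockout.

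In the knockout, all 3 genes were high at every hour, and each knockout library exceeded every other library of the EpiLC table. Across all genes, 3.29% of 16267 had every knockout library above each of the 10 libraries without Dox. That condition is looser, since it leaves out the Dox and cESC libraries. The knockout contrast chose the genes, so its values are given as a description, without a test. Values are normalised read counts, deposited on a scale with 1 divisor per library, and differences are on the log2(value + 1) scale. Among 16267 genes the mean difference had rank 2 for Smyd1, rank 4 for Lrrn2 and rank 6 for Ttn.

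Smyd1 read 85.3, 183.3, 229.1, 293.9, 569.0 and 158.8 in the knockout at 0, 6, 24, 48, 72 and 96 h. The libraries without Dox at the same hours read 5.2, 3.6, 54.5, 11.5, 9.0 and 4.3. The lowest knockout value, at 0 h, was above the highest value without Dox, at 24 h. The log2 differences were 3.8, 5.32, 2.05, 4.56, 5.83 and 4.91, with a mean of 4.41 ± 1.35 (SD, 6 hours). The gap was narrowest at 24 h, when the line without Dox was itself at its peak. At that hour the difference still exceeded that of 97.7% of genes.

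Ttn read 219.7, 802.9, 533.3, 215.4, 317.6 and 101.4 in the knockout. Without Dox at the same hours it read 29.6, 47.0, 64.5, 13.3, 9.5 and 3.0. The knockout was highest at 6 h and lowest at 96 h, and its lowest value was above the highest without Dox. The log2 differences were 2.85, 4.07, 3.03, 3.92, 4.92 and 4.68, with a mean of 3.91 ± 0.84 (SD, 6 hours). The widest gaps fell at 72 and 96 h, where the level without Dox had dropped below 10 units.

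Lrrn2 read 205.6, 69.0, 334.6, 184.6, 208.0 and 134.4 in the knockout. Without Dox at the same hours it read 3.5, 4.2, 20, 4.4, 20 and 6.4. The knockout was lowest at 6 h and highest at 24 h, again without overlap. The log2 differences were 5.52, 3.75, 4.00, 5.10, 3.32 and 4.19, with a mean of 4.31 ± 0.84 (SD, 6 hours). Read numbers without Dox were small for this gene, from 4 to about 40 per library, which limits the precision of each difference.

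**Figure D1:**
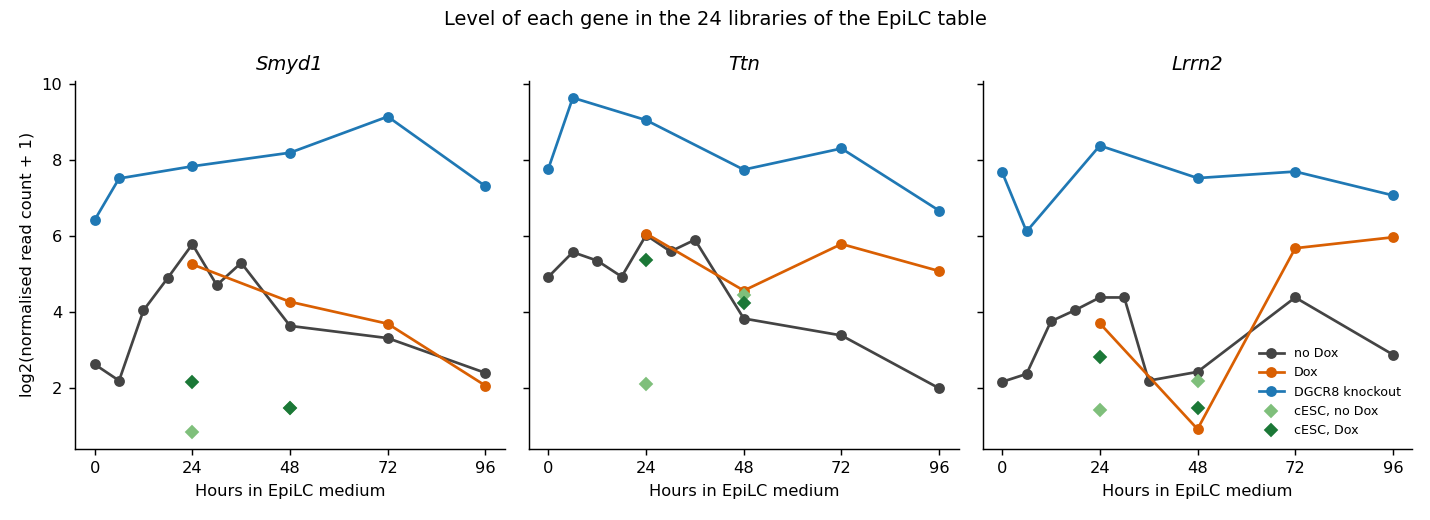
Level of Smyd1, Ttn and Lrrn2 (log2 of the normalised read count + 1, y axis) by hour in EpiLC medium (x axis), 1 point per library. Lines join libraries without Dox (grey), with Dox (orange) and of the DGCR8 knockout (blue), and diamonds are cESCs placed at the hour of the EpiLCs they came from. In each panel the 6 blue points lie above all others. Heights are not comparable between genes, since values are not per transcript length.

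The 3 genes did not follow a shared course within the knockout, a trend that did not enter their selection. Over the 6 knockout libraries Pearson r of the log2 levels was 0.19 for Smyd1 and Ttn, 0.18 for Smyd1 and Lrrn2, and −0.16 for Ttn and Lrrn2, given as a description over libraries of 1 line. The fitted change from 0 to 96 h was 1.54 ± 0.69 for Smyd1 (limma adjusted p = 0.160), −1.34 ± 0.89 for Ttn (adjusted p = 0.333) and 0.20 ± 0.74 for Lrrn2 (adjusted p = 0.879). None passed the threshold of 0.05, which 19% of 16106 genes did. Single libraries set these values. Without the 96 h library the change of Smyd1 was 2.40 (adjusted p = 0.00939), and without the 0 h library that of Ttn was −2.65 (adjusted p = 0.0148).

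Without Dox, the KH2-ISY1 line itself carried low levels of the 3 genes. The test of the EpiLC course passed for Smyd1 and Ttn, as it did for 50.1% of 16206 genes. Smyd1 read 5.2, 3.6, 15.6, 29.1, 54.5, 25.3, 38.5, 11.5, 9.0 and 4.3 at the 10 hours, so it was low at both ends and highest at 24 h. A spline of the course passed the threshold (limma adjusted p = 0.0234), with a fitted difference between the ends of −0.08 ± 0.96. Because the ends were nearly level, the sign of that difference carried no direction, and the rise to 24 h and the later fall were what the curve followed. The call was narrow: without the 12 h library adjusted p was 0.0523.

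Ttn, the sarcomere spring, read 29.6, 47.0, 40.1, 29.7, 64.5, 47.6, 59.2, 13.3, 9.5 and 3.0. The values held between 29.6 and 64.5 up to 36 h and were lower in each later library. The fitted change from 0 to 96 h was a fall of 3.04 ± 0.65 on the log2 scale, and the curve passed (adjusted p = 0.00112). Leaving out any 1 of the 10 libraries kept adjusted p between 0.000356 and 0.0269. Among 16206 genes, 50.1% passed the same test of the course.

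Lrrn2 read 3.5, 4.2, 12.6, 15.7, 20, 20, 3.6, 4.4, 20 and 6.4. It was higher from 12 to 30 h and at 72 h than at the other hours, and the curve did not pass (1.47 ± 1.09, adjusted p = 0.378). In the knockout all 3 genes were already high at 0 h. The 4 cESC libraries held low values of Smyd1 (0.8 and 1.8 from cells without Dox, 3.5 and 1.8 from cells with Dox) and Lrrn2 (1.7 and 3.6, then 6.1 and 1.8). Ttn in cESCs read 3.3 and 20.9 from cells without Dox and 40.4 and 18.0 from cells with Dox. With 1 library for each, these have no test. In cESCs from 24 h EpiLCs all 3 genes were higher after Dox, and in those from 48 h EpiLCs none was. The 24 h values rest on 1 to 4 reads without Dox and 4 to 46 with Dox. With both hours pooled, values with and without Dox touched or overlapped for all 3 genes.

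Dox, which was not used to choose the genes, changed none of the 3 past the threshold in the fit over 4 hours. This comparison shares its libraries without Dox with the knockout comparison, so the values are set side by side and no likeness is computed. Across 16117 genes, 2.83% passed. Smyd1 read 37.4, 18.4, 12.0 and 3.2 with Dox at 24, 48, 72 and 96 h, against 54.5, 11.5, 9.0 and 4.3 without. It was higher with Dox at 2 of 4 hours, and the mean log2 difference was 0.04 ± 0.28 (SE, 4 pairs, limma adjusted p = 0.954).

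Ttn read 66.4, 22.8, 54.7 and 33.0 with Dox, against 64.5, 13.3, 9.5 and 3.0 without. It was higher with Dox at 4 of 4 hours, by 0.04, 0.73, 2.41 and 3.09 on the log2 scale. The mean of 1.57 ± 0.48 did not pass (limma adjusted p = 0.117). Leaving out the 24 h pair gave 2.08 with adjusted p = 0.0464, in a fit that called 1122 genes in place of 456. Without the 48, 72 or 96 h pair adjusted p was 0.182, 0.445 and 0.244. The change of the Dox difference with hour, a test added after the values were seen, was 3.22 from 24 to 96 h (limma adjusted p = 0.0192). In that fit 2.53% of genes passed. It is a line through 4 differences, so p leans on the variance that limma shares across genes. The call was lost without the filter on low values (adjusted p = 0.0584) and without the intensity trend (adjusted p = 0.157). The level with Dox stayed between 22.8 and 66.4 units while the level without Dox fell.

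Lrrn2 read 12.1, 0.9, 50.6 and 62.0 with Dox, against 20, 4.4, 20 and 6.4 without. It was lower with Dox at 24 and 48 h and higher at 72 and 96 h, with log2 differences of −0.68, −1.51, 1.30 and 3.09 and a mean of 0.55 ± 0.69 (adjusted p = 0.671). The 48 h pair rests on 1 read with Dox and 5 without, a ratio of 0.198 with an exact 95% interval from 0.00419 to 1.77 for counting error only. The change with hour was 4.02 (adjusted p = 0.0845). Both Ttn and Lrrn2 were thus highest relative to their controls at 96 h, by log2 differences of 3.09 each. In the knockout at 96 h the differences were 4.68 for Ttn and 4.19 for Lrrn2. For Smyd1 the difference at 96 h was −0.34 with Dox and 4.91 in the knockout.

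**Figure D2:**
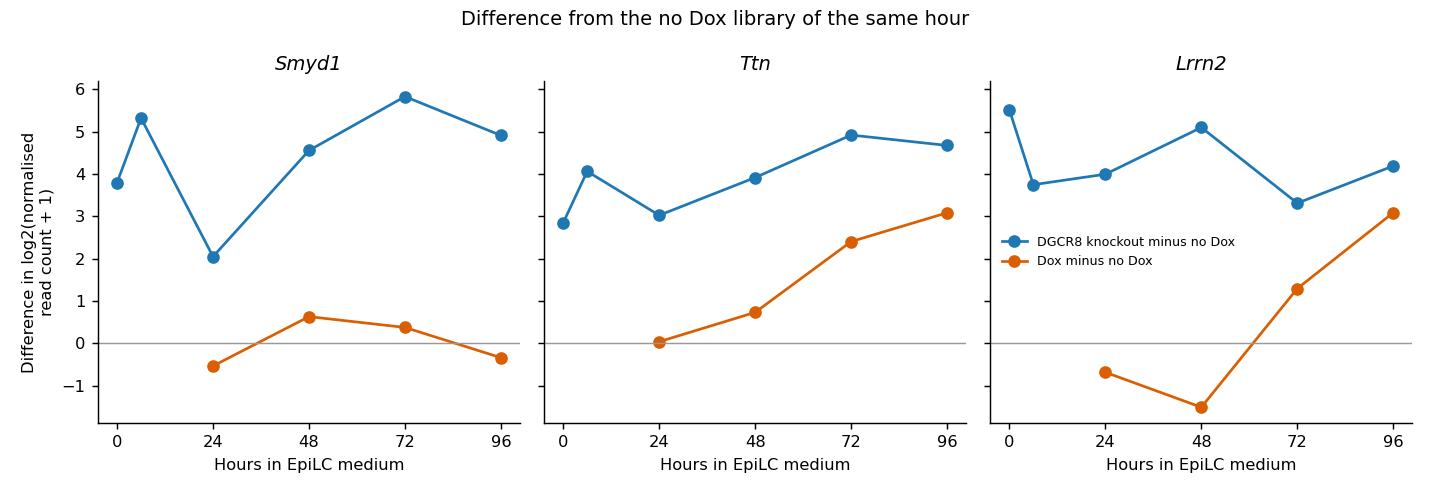
Difference in log2(normalised read count + 1) from the library without Dox of the same hour (y axis) by hour (x axis), for the DGCR8 knockout (blue) and for Dox (orange), 1 point per pair of libraries. Every knockout point lies above 2, the orange line of Smyd1 stays near 0, and those of Ttn and Lrrn2 reach 3.09 at 96 h.

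In embryoid bodies, where germ layers form, all 3 genes were highest in the day 13 library, but only the curve of Lrrn2 passed. Lrrn2 read 3.18, 6.29, 4.67, 23.75, 33.53, 58.33 and 143.89 at days 0, 1, 2, 4, 8, 10 and 13, so each library from day 4 on was above the one before it. The fitted change from day 0 to day 13 was 5.0 ± 0.59 on the log2 scale. The curve passed (limma adjusted p = 0.00312), and leaving out any 1 of the 7 libraries kept adjusted p between 0.00181 and 0.0245. Over 16753 genes, curves passed with a higher fitted end for 17.3% and with a lower one for 9.61%. The test is of the whole curve, so some of these genes have nearly level ends.

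Smyd1 read 1.14, 6.86, 2.89, 3.13, 5.29, 5.56 and 30.56 over the same days, and only the day 13 library stood well above the rest. Its fitted change was 2.46 ± 0.94, and the curve did not pass (adjusted p = 0.137). Ttn read 11.82, 39.81, 23.11, 6.25, 5.29, 5.0 and 49.44, with high values at days 1 and 13 and low ones from day 4 to day 10. The fitted change of Ttn was −0.50 ± 1.34. Its curve did not pass (adjusted p = 0.849) and did not follow the day 13 value. Without the day 0 library both curves passed, Smyd1 at 1.78 (adjusted p = 0.0406) and Ttn at −0.68 (adjusted p = 0.0217). In that setting 5847 genes passed in place of 4505. The p is of the whole curve, so it does not show a fall of Ttn, which read 39.81 at day 1 and 49.44 at day 13.

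The serum/LIF library with Dox read 2.14 for Smyd1, 19.76 for Ttn and 3.33 for Lrrn2, beside 1.14, 11.82 and 3.18 without Dox, with no replicate check. The tables were normalised separately, so levels across them were set only in parts per M (mega) of each table's total. On that scale Smyd1 had a median of 37.5 in the knockout and a highest EB value of 5.91, Ttn 48.8 and 9.56, and Lrrn2 35.2 and 27.8. In the knockout, the lowest libraries held 15.3 parts per M of Smyd1, 18.4 of Ttn and 12.4 of Lrrn2. The knockout values chose the genes, and the share of all genes that differ likewise was not counted.

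**Figure D3:**
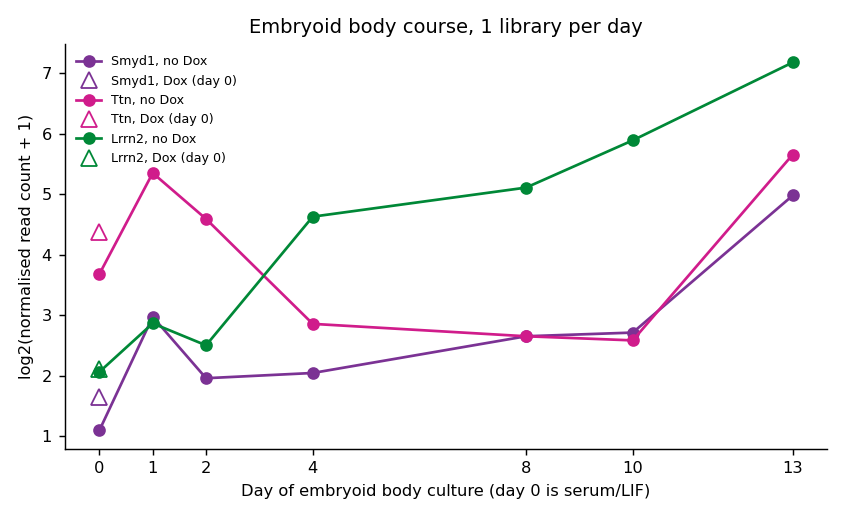
Level of each gene (log2 of the normalised read count + 1, y axis) by day (x axis) in the 7 libraries without Dox (filled points, joined) and in the serum/LIF library with Dox (open triangles). Lrrn2 climbs from day 4 to day 13, Smyd1 is highest at day 13, and Ttn is high at days 1 and 13. Heights are not comparable between genes.

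Genes that work beside Smyd1 and Ttn in muscle were counted in lists, with no test of a list against other genes. Listed genes that the EpiLC table did not hold are left out of these counts. Against the 18.1% of all genes that were higher in the knockout and the 24.3% that were lower, 2 of 25 tested sarcomere genes rose and 3 fell, with a median difference of −0.27 beside −0.08 for all genes. The risers were Mybpc3, a myosin-binding protein (1.28 ± 0.38, limma adjusted p = 0.0240), and Nebl, a Z-disc protein (1.19 ± 0.42, adjusted p = 0.0460). Both were at low levels, with knockout means of 4.68 and 6.17. Neither passed when any 1 of the 6, 24 or 48 h pairs was left out. Myom2, of the M-line, fell by 1.24 ± 0.32 (adjusted p = 0.0125), and Myh3, embryonic myosin, fell by 1.16 ± 0.37 (adjusted p = 0.0324), a call lost when any pair but that at 6 h was left out. Cardiac actin, Actc1, named after its values were seen, read 0 to 0.4 in the knockout and 0 to 27.7 without Dox (−1.11 ± 0.66, adjusted p = 0.198).

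Among 12 tested genes whose proteins work with titin, 2 rose and 5 fell, with a median of −0.49. Trim54 and Trim63, muscle ubiquitin ligases, fell by 2.13 ± 0.28 (adjusted p = 0.000592) and 1.99 ± 0.25 (adjusted p = 0.000473). Speg, a muscle kinase, fell by 1.72 ± 0.26 and Obsl1, a titin-binding linker, by 1.33 ± 0.29 (adjusted p = 0.00117 and 0.00622). Of 8 smooth muscle genes 1 rose and 4 fell. Des, the muscle intermediate filament protein, fell by 3.71 ± 0.36 (adjusted p = 0.000153), from 85.1 to 165.5 without Dox to 4.2 to 41.2 in the knockout. Cnn1, a calponin, fell by 1.86 ± 0.35, Lmod1, a leiomodin, fell by 1.60 ± 0.33, and Synpo2, an actin-bundling protein, rose by 1.01 ± 0.35 (adjusted p = 0.00291, 0.00444 and 0.0417). The call of Synpo2 was lost when any pair but that at 24 h was left out, so that no smooth muscle gene then rose.

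Of 23 muscle transcription factors listed, the EpiLC table held 11, and these were divided, with 5 higher and 3 lower. Myod1, Myf5, Myog, Mef2c, Myocd and Nkx2-5 were among those it did not hold. Tbx20, a cardiac T-box factor, rose by 2.53 ± 0.53 (adjusted p = 0.00496) and Mef2b fell by 2.76 ± 0.40 (adjusted p = 0.000867). Gata4, a heart and endoderm factor, rose by 1.06 ± 0.27 (adjusted p = 0.0126). Among the relatives of Smyd1, Smyd2 rose by 1.51 ± 0.11 (adjusted p = 3.99e-05) and Smyd3 by 0.62 ± 0.12 (adjusted p = 0.00394). Smyd4 fell by 0.29 ± 0.10 (adjusted p = 0.0464), a call lost under both other scalings, without hour as a block and whichever pair was left out, and Smyd5 was at 0.16 ± 0.12 (adjusted p = 0.308). Naca, whose muscle isoform binds SMYD1, fell by 0.56 ± 0.08 (adjusted p = 0.00114).

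The neuron and leucine-rich repeat lists were divided as well. Of 17 tested neuron genes 6 rose and 2 fell, with a median of 0.59, and of 22 neuronal adhesion genes with leucine-rich repeats 5 rose and 3 fell, with a median of −0.23. Lrrn3, of the same family as Lrrn2, rose by 2.17 ± 0.34 (adjusted p = 0.00125), from 0 to 3.6 without Dox to 2.8 to 22.4 in the knockout. Lrrn4 was at −0.46 ± 0.26 (adjusted p = 0.175). Lrig1, a growth factor receptor inhibitor, rose by 1.31 ± 0.16, while Lingo3 fell by 2.20 ± 0.25 and Rtn4r, the Nogo receptor, by 1.25 ± 0.43 (adjusted p = 0.000414, 0.000296 and 0.0402). The call of Rtn4r was lost without the 6, 48, 72 or 96 h pair. The neural adhesion molecule Ncam1 rose by 2.28 ± 0.58, the neurofilament gene Nefh by 1.68 ± 0.23 and Stmn3, a tubulin-binding protein, by 1.5 ± 0.23, while the synaptic vesicle gene Syp fell by 1.48 ± 0.24 (adjusted p = 0.0124, 0.000726, 0.00106 and 0.00158).

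REST silences neuronal genes in other tissues, and 3 of 9 genes of its complex rose and none fell. These were Rest (0.59 ± 0.08), its corepressor Rcor2 (0.87 ± 0.13) and the methyltransferase gene Ehmt2 (0.48 ± 0.09), with adjusted p of 0.000867, 0.00105 and 0.00291. Of 11 neural progenitor genes listed, the EpiLC table held 6. Of these 2 rose, Olig2 (2.15 ± 0.28, adjusted p = 0.000484) and Zbtb16 (1.96 ± 0.39, adjusted p = 0.00422), and Nes fell by 0.68 ± 0.13 (adjusted p = 0.00301). In embryoid bodies 19 of 21 neuron and 22 of 32 adhesion gene curves passed with a higher fitted end, like that of Lrrn2. Among them were Lrrn3 (7.94, adjusted p = 0.000660) and Lrrn1 (8.17 ± 1.08, adjusted p = 0.00480). Of 26 sarcomere genes there, 7 passed with a higher fitted end and 1 with a lower one. Over all genes of that fit the shares were 17.3% and 9.61%.

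Markers of other cell types that the cultures could hold were summed. The 26 measured of 40 sarcomere genes summed to 1249 to 2112 units without Dox and to 1530 to 1765 in the knockout, where Tnni2 was at 0 in every library. Tpm3, a tropomyosin gene that is also active outside muscle, made up most of these sums, with means of 1163 and 1250 over the 6 hours. The 17 neuron genes measured of 21 summed to 2017 to 4704 without Dox and to 4111 to 6047 in the knockout, and none was at 0 throughout. The 4 fibroblast genes measured of 8 summed to 25.6 to 180.5 and to 21.4 to 64.6, and 2 of 3 tested fell (Thy1, −1.29 ± 0.29, and Col1a1, −1.13 ± 0.26, adjusted p = 0.00656 and 0.00767). All 3 endothelial genes measured of 5 rose (Kdr 2.00 ± 0.36, Tek 1.74 ± 0.40 and Pecam1 1.71 ± 0.46, adjusted p = 0.00239, 0.00771 and 0.0166). Their sums were 14.5 to 387.9 and 216.0 to 522.2. Pecam1 made up most of these sums, with means of 138.9 and 279.9 over the 6 hours. Along the EpiLC course without Dox, the curves of all 3 passed with a lower fitted end. Whether they mark endothelial cells here was not tested. Of 6 pluripotency genes 2 rose, Sox2 (1.54 ± 0.36) and Esrrb (1.08 ± 0.27), with adjusted p of 0.00776 and 0.0125. Under median-ratio or TMM scaling 4 of the 6 rose, and without hour as a block none did. In these bulk samples, more cells of a type and more RNA per cell cannot be told apart. The part of the neuron and endothelial markers in the levels of the 3 genes was not tested.

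**Figure D4:**
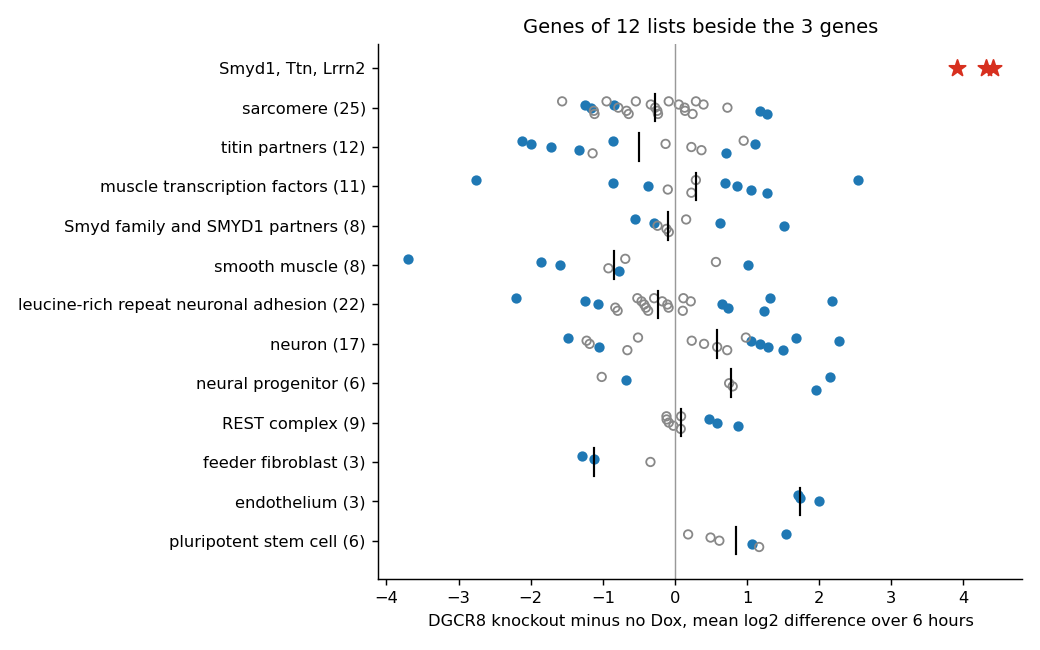
Mean log2 difference between the DGCR8 knockout and KH2-ISY1 without Dox over 6 hours (x axis) for each tested gene of 12 lists (y axis, number tested in brackets). Filled points passed limma at an adjusted p under 0.05, open points did not, bars are list medians, and stars are Smyd1, Ttn and Lrrn2, placed by a contrast that chose them. The stars lie to the right of every listed gene.

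Genes along the chromosomes around Smyd1 and Lrrn2 were also shifted upward in the knockout, by far less than the 2 genes. This was looked for after the values were seen. Within 10 Mb of Lrrn2, 74 genes with a mean of at least 50 had a median log2 difference of 0.55, and 48 of them were called higher. Within 10 Mb of Smyd1, 38 genes had a median of 0.29 and 16 were called higher. Around Ttn, 66 genes had a median of −0.07, close to the −0.05 of all genes at that level, and 7 were called higher. Values were higher for 74.3%, 71.1% and 42.4% of genes around Lrrn2, Smyd1 and Ttn, beside 46.3% of all genes at that level. Among all tested genes 18.1% were called higher, and the share at that level was not counted.

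The shift around Lrrn2 covered the distal part of chromosome 1, where 20 Mb stretches had medians of 0.22 to 0.81, or at most 0.64 without a stretch of 18 genes. Chromosome 6 as a whole stood at 0.22, and the other chromosomes apart from 1 lay between −0.14 and −0.01. Smyd2 and Smyd3, which rose, lie in such stretches of chromosome 1 (medians 0.64 and 0.53), and Lrig1 in one of chromosome 6 (0.28). Lmod1, which fell by 1.60, and Tnni1, which was not called, lie in the stretch that holds Lrrn2 (0.55), and Smyd5, not called, in that of Lrig1. With Dox, the medians around the 3 genes were 0.01 to 0.02. Taking each window's median off left differences of 4.12 for Smyd1, 3.99 for Ttn and 3.76 for Lrrn2. DNA copy number was not measured, and its part in these values was not tested.

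The nearest measured neighbours that RefSeq lists as protein-coding were also compared. Beside Lrrn2, Mdm4, a p53 inhibitor, rose by 0.90 ± 0.15 (limma adjusted p = 0.00152) and the lipid kinase gene Pik3c2b by 0.97 ± 0.18 (adjusted p = 0.00318). On its other side, the neuronal adhesion genes Nfasc (1.04 ± 0.39, adjusted p = 0.0588) and Cntn2 (−0.35 ± 0.31, adjusted p = 0.385) did not pass. Beside Ttn, Ccdc141 rose by 1.59 ± 0.33 (adjusted p = 0.00457, higher at 6 of 6 hours), while Plekha3 (0.30 ± 0.13), Fkbp7 (−0.56 ± 0.28) and Sestd1 (−0.19 ± 0.14) did not pass. None of the 4 neighbours of Smyd1 passed: Thnsl2 (−0.74 ± 0.30), Rpl34-ps1 (−0.33 ± 0.12, a symbol of the form used for pseudogenes), Krcc1 (0.44 ± 0.22) and Cd8b1 (0.33 ± 0.29). The sources used here do not say whether counting used strand, so reads of antisense transcripts over Ttn could not be separated.

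**Figure D5:**
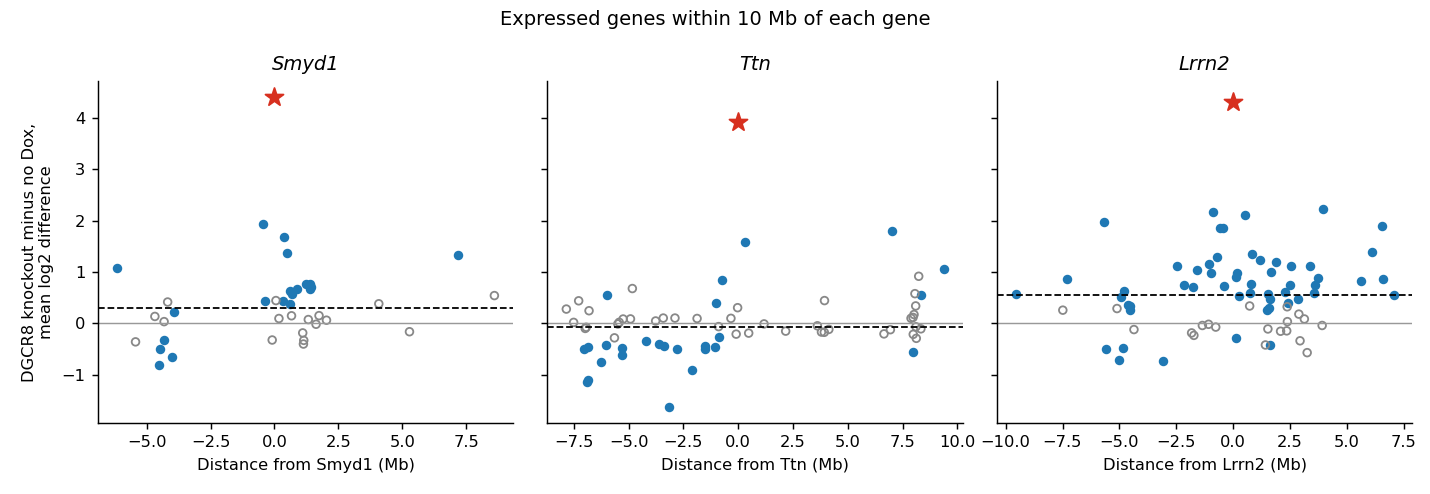
Mean log2 difference between the DGCR8 knockout and KH2-ISY1 without Dox (y axis) for expressed genes within 10 Mb of each of the 3 genes (x axis, distance between annotated starts of the intervals in Mb). Filled points passed limma at an adjusted p under 0.05, the dashed line is the window's median (0.29, −0.07 and 0.55), and the star is the gene itself.

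The genes with the most similar pattern over the 24 libraries of the EpiLC table were found by Pearson r of log2 levels. Since the 6 knockout libraries stand apart in all 3 genes, these r values mostly follow that contrast. For Smyd1 they were BC055324 and Rae1 (0.94 each), Rybp-ps (0.93), Rpia and Aurka (0.92 each), and Rpia starts 0.448 Mb from Smyd1 and was 1.93 higher in the knockout. For Ttn they were Gm42718, Gm14412 and Gm14409 (0.93 each), Stau1 and Zbtb38 (0.92 each). For Lrrn2 they were Zfp827 (0.94), Mkl2 (0.92), and Spata2, Tnrc6c and the Argonaute gene Ago1 (0.90 each). Rae1, Aurka, Gm14412, Stau1 and Spata2 lie in 1 stretch of 20 Mb on chromosome 2, which holds none of the 3 genes. There the median knockout difference was 0.82 and 90.5% of 105 genes were higher, beside 46.3% of all genes at that level.

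Correlations between the 3 genes themselves are given as a description. The genes named above had the 5 highest r of 16272 genes, so any other gene has a lower r by that choice. In each other's lists the 3 genes had ranks from 128 (Ttn for Smyd1) to 515 (Lrrn2 for Ttn). Over the same 24 libraries r was 0.83 between Smyd1 and Ttn, 0.78 between Smyd1 and Lrrn2 and 0.76 between Ttn and Lrrn2. Among the 10 libraries without Dox it was 0.58, 0.49 and 0.08. Over the 7 EB libraries without Dox it was 0.53, 0.78 and −0.08 in the same order. Over the 8 EB libraries the most similar genes were B3galt4 for Smyd1 (0.97), Ptgs2 for Ttn (0.95) and Abhd16a for Lrrn2 (1.00).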

How the data were processed

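Gene levels in 32 polyA libraries were taken from 2 tables of normalised signal. Per the labels' protocols RNA was extracted with Trizol and prepared with a TruSeq stranded kit. The submitters' processing notes name Bowtie and the builds GRCm38 and mm9. Roles of the builds, the counter, the annotation and the normalisation are not given in the sources used here. Steps between low values show that the deposited signal is a read count divided by 1 factor per library, and whole reads (within 0.1) were recovered for 24 libraries. In the EB table every gene reached at least 10.0 units in some library. MicroRNA tables were not used.

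Genes with a mean of at least 1 were fitted as log2(value + 1) with limma 3.58.1 in R 4.3.3, with an intensity trend, two-sided, and adjusted by Benjamini-Hochberg over all genes at a threshold of 0.05. Knockout and Dox were compared over 6 and 4 pairs of libraries with hour as a block, leaving 5 and 3 residual degrees of freedom. Courses were natural splines of the square root of time (3 degrees of freedom for EpiLC, 2 for EB) or, in the knockout, a line. For a spline, p is of the whole curve, and higher or lower is the sign of the fitted end difference. With 1 library per condition and time, the spread over hours or around a curve stands in for replicate error. edgeR 4.0.16 was run on recovered reads of the 24 and 48 h Dox pairs. Alternatives were the pseudocount, filter, scaling, trend, block, curve and leaving out each library or pair. Promoters and neighbours came from RefSeq tables of GRCm38.p6.

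The 3 genes, and the 12 lists, were chosen with earlier results of these data known. Named were the 3 genes, up to 4 called genes per list with the largest knockout difference, the Smyd and Lrrn families, Dgcr8, Isy1, the 2 nearest measured neighbours on each side, and the 5 most similar genes per table, of which the first is given for EBs. Promoter motifs, chromosome windows and the change of the Dox difference with hour were chosen after the data were seen. One gene that this rule names is not reported here.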

Additional observations from a re-analysis of the deposited data

Results flagged for a closer look

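The effect of Dox on Lrrn2 had opposite signs at early and late hours, which is why it is listed. Both early pairs were lower with Dox (mean log2 difference −1.09 at 24 and 48 h) and both late pairs were higher (2.19 at 72 and 96 h), a late minus early difference of 3.29. The late minus early difference itself was not tested. A different measure, the fitted change of the Dox difference from 24 to 96 h in limma, was 4.02 with an adjusted p of 0.0845 and did not pass. Without the 96 h pair that fitted change was 1.81 (adjusted p = 0.277), and without the 24, 48 or 72 h pair it was 4.61, 3.55 and 4.04 (adjusted p = 0.000333, 0.0107 and 0.0247). With a pair left out the line rests on very few differences, so these p lean almost wholly on the variance that limma shares across genes. The early pairs rest on 13 and 1 reads with Dox and 22 and 5 without.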

How the results depend on the processing

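The mean knockout differences moved by less than their SD over hours under all alternatives run. With 1 pair left out they were 4.13 to 4.89 (Smyd1), 3.71 to 4.12 (Ttn) and 4.07 to 4.51 (Lrrn2). They were lowest with a pseudocount of 5, at 3.875, 3.568 and 3.74 in the same order. The labels give no replicate numbers, so libraries were paired by hour. Without hour as a block, 3487 genes were called for the knockout in place of 6899, and none of 456 for Dox (1276 at an unadjusted p under 0.05). All 5 sarcomere calls, among others, were then lost. Median-ratio scaling split the knockout calls 3554 higher and 3135 lower and TMM 3543 and 3157, beside 2941 and 3958. With 1 pair left out, knockout calls were 5517 to 6316 and Dox calls 0 to 1122. No gene was called for Dox without the filter or without the trend (3678 and 3306 unadjusted), nor without the 48 or 72 h pair (3210 and 1924 unadjusted), and edgeR called 522. Dox differences with 1 pair left out were −0.16 to 0.23 (Smyd1), 1.06 to 2.08 (Ttn) and −0.30 to 1.23 (Lrrn2). edgeR on the 24 and 48 h pairs alone gave −0.16 for Smyd1, 0.25 for Ttn and −0.996 for Lrrn2, none called, where the means of those pairs in the limma scale were 0.05, 0.39 and −1.09. The change with hour of the Dox difference of Ttn had adjusted p = 0.0584 without the filter and 0.157 without the trend. That of Lrrn2 passed with a pseudocount of 5 (3.21, adjusted p = 0.0389), and that of Smyd1 was −0.95 to 0.97 with 1 pair left out.

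With 1 library left out, EpiLC course calls were 6090 to 8262, and the end difference of Smyd1 was −0.24 to 0.61. A linear trend called 3772 genes in place of 8125 and gave 0.21 for Smyd1 (adjusted p = 0.928) and −2.96 for Ttn (adjusted p = 0.0550). Without the intensity trend Smyd1 was at −0.078 with adjusted p = 0.05. Knockout course calls were 1145 to 2890 beside 3060, with 0.50 to 2.40 for Smyd1, −2.65 to −0.27 for Ttn and −0.53 to 0.69 for Lrrn2. EB calls were 1919 to 5847 beside 4505, with 1.24 to 3.05 for Smyd1 and −1.85 to 0.22 for Ttn. The 5 genes most similar to Smyd1, Ttn and Lrrn2 by Spearman rho shared 3, 1 and 1 with those by Pearson r in the EpiLC table and 0, 1 and 1 in the EB table. The cause of these changes was not tested. Low depth limits all 3 genes: without Dox the lowest EpiLC libraries held 4 reads of Lrrn2, 6 of Smyd1 and about 7 of Ttn.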
